A study of Mus musculus with 30 samples.

Results

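The Toll-like receptors are the innate sensors by which macrophages detect microbial lipids, proteins and nucleic acids, and Cd180 (RP105) is a related surface receptor that lacks their signalling domain. Their transcripts were followed in mouse macrophages exposed to lipopolysaccharide (LPS, from the outer membrane of Gram-negative bacteria) after a β2 adrenergic agonist or its vehicle. The genes were chosen by symbol: Tlr1, Tlr2, Tlr3, Tlr4, Tlr6, Tlr7, Tlr8, Tlr9, Tlr13 and Cd180 are 10 of the 24761 gene symbols in the expression table. Expression is given as RPKM, the reads of a transcript per kilobase of length and per mega (M) of mapped reads, so levels can be compared between genes.

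The macrophages came from marrow of wild-type C57Bl/6 mice, were grown with M-CSF and carried no engineered allele. The MPH group was 3 cultures (M2, M3 and M4) that received 1 µM metaproterenol hemisulfate, an agonist of the β2 adrenergic receptor, for 2 h. The DMSO group was 7 cultures (r1, r2, UKD and D3 to D6) that received the vehicle for 2 h. LPS, labelled as 100 ng/µL, followed for 0 h (no LPS), 1 h or 2 h, and each culture gave 1 library per time, 30 in all. The labels do not say whether the cultures came from separate mice, so p-values measure only the spread between the libraries of these cultures, which may be technical. MPH was compared mainly with D3 to D6, leaving out UKD, r1 and r2, which are named in other series. The MPH cultures are also named apart from D3 to D6, so treatment and name series cannot be told apart. The LPS response under DMSO was measured in all 7 cultures.

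Tlr4, with its partner MD-2 (Ly96) and the co-receptor Cd14, is the receptor for LPS, and Tlr2 pairs with Tlr1 or Tlr6 at the cell surface to detect bacterial lipopeptides. Tlr3, Tlr7, Tlr8, Tlr9 and Tlr13 sit in endosomes. Of these, Tlr3 detects double-stranded RNA, Tlr7 single-stranded RNA, Tlr9 CpG DNA and Tlr13 bacterial ribosomal RNA. Cd180 is carried to the surface by MD-1 (Ly86) and is known as a modulator of Tlr4 signalling in myeloid cells.

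The promoters of Tlr2, Cd180 and Tlr13 are shown because Tlr2 had the largest rise of the 10 genes after LPS, and because every MPH culture lay below all 7 DMSO cultures in Cd180 and in Tlr13 at 0 h. The share of all genes that lay so is not given. Each sequence is the 250 bases before the RefSeq start in GRCm38.p6: chr3:83841609-83841858 on the minus strand for Tlr2, chr13:102693308-102693557 on the plus strand for Cd180, and chrX:106143025-106143274 on the plus strand for Tlr13. Both strands were searched for the NF-kB and ISRE consensus, the cAMP response element TGACGTCA, its half-site TGACG (held by every full element) and the AP-1 motif TGANTCA. Capitals mark overlapping NF-kB matches in Tlr2, the first 173 bases before the start, and a half-site in Tlr13, 136 bases before the start. Cd180 held none of these motifs in this window.
Tlr2: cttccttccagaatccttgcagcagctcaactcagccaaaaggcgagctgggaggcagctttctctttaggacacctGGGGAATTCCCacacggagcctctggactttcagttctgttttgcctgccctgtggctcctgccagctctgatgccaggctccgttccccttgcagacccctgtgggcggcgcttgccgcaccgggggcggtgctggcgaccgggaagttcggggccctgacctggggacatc
Cd180: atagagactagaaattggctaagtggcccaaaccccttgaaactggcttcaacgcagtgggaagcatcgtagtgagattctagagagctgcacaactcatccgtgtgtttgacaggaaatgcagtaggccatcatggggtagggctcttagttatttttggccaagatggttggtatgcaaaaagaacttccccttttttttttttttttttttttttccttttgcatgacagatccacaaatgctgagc
Tlr13: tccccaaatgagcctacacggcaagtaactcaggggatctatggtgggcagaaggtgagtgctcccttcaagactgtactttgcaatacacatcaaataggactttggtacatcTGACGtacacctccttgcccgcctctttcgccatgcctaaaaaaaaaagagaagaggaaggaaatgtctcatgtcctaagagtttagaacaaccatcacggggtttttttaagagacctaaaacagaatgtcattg
Of 32851 RefSeq windows of this length, 3.9% held an NF-kB match, 2.98% an ISRE, 1.55% the full cAMP response element, 17.8% its half-site and 6.75% the AP-1 motif. Windows were at hand for 8 of the 10 genes, all but Tlr4 and Tlr7. Among the others, Tlr3 held an NF-kB match 211 bases before its start, Tlr9 an AP-1 match at 58 bases, and Tlr6 ISRE matches at 116 and 110 bases. Tlr6 has a second window, with a half-site 73 bases before its start, and no window of these genes held the full cAMP response element. A match describes letters only.

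Libraries held about 5.38 to 92.1 M reads (median 41.3 M). This was estimated from the most common length-scaled value among transcripts below 0.1 RPKM, taken to be 1 read, which was not checked. Csf1r, Adgre1 and Cd68, markers of macrophages, were never below 70.9 RPKM. Of the other listed macrophage markers, Itgam had 39.4 to 189 RPKM, Fcgr1 2.66 to 39.2 and Mertk 0.838 to 12.1 RPKM. The B cell markers Cd79a and Ms4a1, from a lineage that also carries Cd180, did not exceed 0.185 RPKM, Cd79b reached 1.42 RPKM, and no dendritic, T, NK or stromal cell marker on the lists reached 1 RPKM. The neutrophil list summed to 33.5 to 74.1 RPKM in MPH libraries and 4.01 to 75.2 RPKM in DMSO libraries, while Ly6g did not exceed 0.356 RPKM, and the part of this list in the results was not tested. The cAMP-inducible gene Crem had 22.0, 53.7 and 21.2 RPKM at 0 h in M2, M3 and M4, against 1.14, 1.84, 1.25 and 2.08 RPKM in D3, D4, D5 and D6. At 1 h Crem had 33.0, 47.9 and 0.946 RPKM in the MPH cultures, against a lowest, median and highest value of 0.296, 1.29 and 3.45 RPKM in the 7 DMSO cultures, so the library labelled M4 at 1 h stood with the DMSO libraries, and results at 1 h with MPH include it unless stated. Without it, limma called 1 of the 10 genes at 1 h against 0 h with MPH, and 4 with the culture as a block. Shares of all genes without this library are not given for these counts, so the counts cannot be weighed. With the library, 12.1% of all genes passed with the block. Between MPH and DMSO at 1 h, limma called 0 of the 10 and 137 of all genes without this library, and none of all genes with it. Without this library it called 0 interactions of the 10 at 1 h, with or without the block. Deviations from the group means were shared by libraries of different treatments, with correlations over genes of 0.82 to 0.84 for M2 with D3, 0.75 to 0.87 for M3 with D4 and 0.67 to 0.85 for M4 with D5, and the labels do not say what these cultures share, so no fit pairs them.

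**Figure D1:**
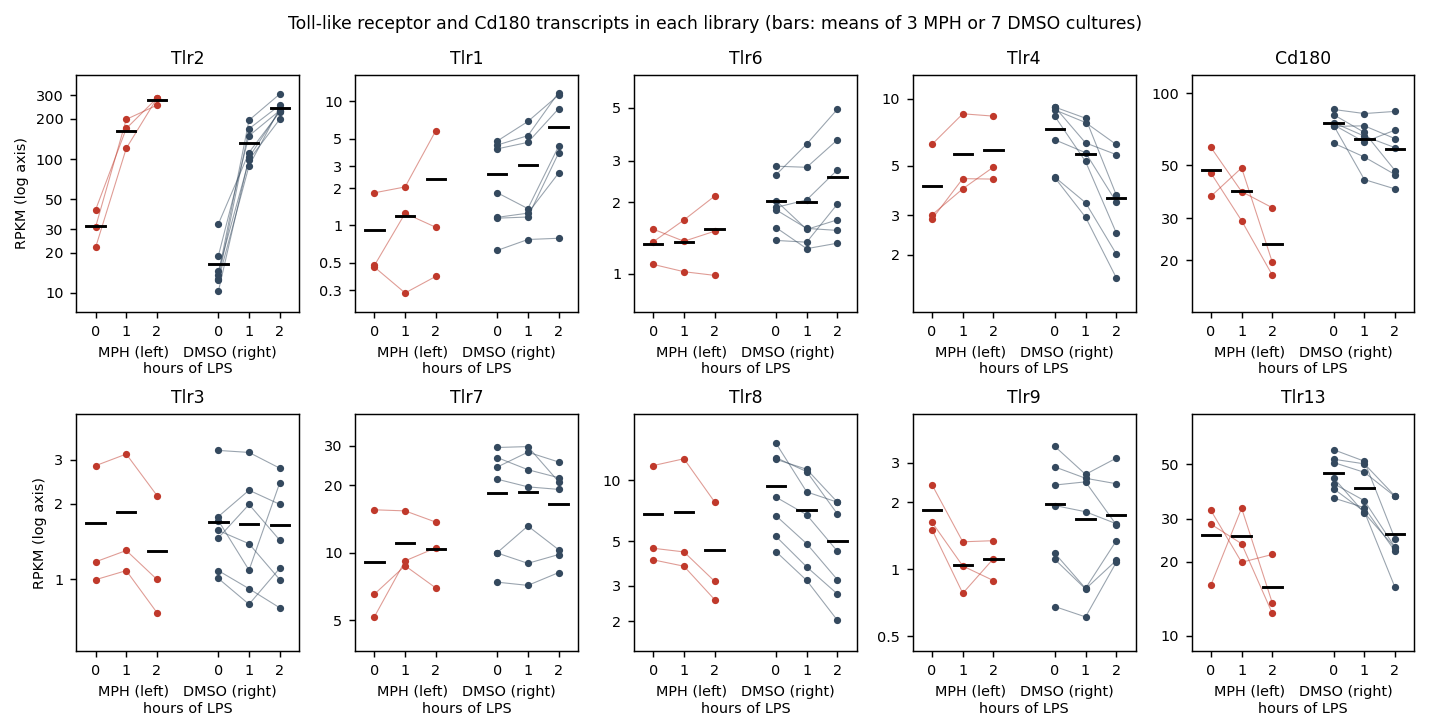
RPKM (log axis) of the 10 genes in all 30 libraries by hours of LPS, with MPH cultures (red) left of DMSO cultures (dark). Points are libraries, thin lines join the libraries of a culture, and bars are means of 3 MPH or 7 DMSO cultures. Tlr2 climbs in every culture, Tlr4 climbs from 0 h to 2 h in the 3 MPH cultures and falls in the 7 DMSO cultures, and Cd180 is lowest with MPH at 2 h.

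Before LPS, Cd180 was the most abundant of these transcripts under both pretreatments, followed by Tlr2 with MPH and by Tlr13 with DMSO. In the MPH cultures at 0 h, Cd180 averaged 47.6 ± 11.2 RPKM, Tlr2 31.5 ± 9.94 and Tlr13 25.6 ± 8.50 RPKM (SD, n = 3). Tlr2 and Tlr13 differed there by less than either SD, and in M2 alone Tlr13 was the higher, at 32.4 against 31.1 RPKM. In the DMSO cultures at 0 h, Cd180 averaged 74.7 ± 7.46 RPKM (SD, n = 7), above 96.1% of the genes tested, and Tlr13 averaged 46.0 ± 7.57 RPKM, above 92.7%. Tlr7 followed at 18.4 ± 9.06 RPKM, Tlr2 at 16.4 ± 7.63, Tlr8 at 9.38 ± 4.27 and Tlr4 at 7.29 ± 2.15 RPKM. Tlr1 averaged 2.59 ± 1.79 RPKM, Tlr6 2.03 ± 0.528, Tlr9 1.96 ± 1.04 and Tlr3 1.69 ± 0.752 RPKM. Neighbours from Tlr7 to Tlr4 and from Tlr1 to Tlr3 in this order differed by less than the larger of their SDs. Tlr5, the flagellin receptor, stayed at or below 0.588 RPKM in all DMSO libraries, and Tlr11 and Tlr12 at or below 0.0649 RPKM in every library.

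Tlr1 and several endosomal receptors differed widely between cultures. Among the DMSO cultures at 0 h, Tlr1 had its highest value, 4.79 RPKM, in r1 and its lowest, 0.628 RPKM, in D3, a ratio of 7.63. The ratio of highest to lowest culture was 5.23 for Tlr9, 3.99 for Tlr7 and 3.46 for Tlr8, against a median of 1.80 over 10212 genes. Cd180 varied by 1.38 times and Tlr13 by 1.57 times, below this median. Tlr1 was high in M3 among the MPH cultures and in D4, r1 and r2 among the DMSO cultures, which were also high in Ly86, the partner of Cd180. At 0 h Tlr1 in M3, at 1.83 RPKM, was no higher than in D6, at 1.84 RPKM. Ly86 had 2.07, 28.4 and 4.88 RPKM in M2, M3 and M4, against 2.89, 22.6, 5.93 and 13.2 RPKM in D3, D4, D5 and D6, 3.85 RPKM in UKD, and 34.5 and 37.7 RPKM in r1 and r2. The macrophage marker Adgre1 was high in the same cultures, with 214 RPKM in M3 against 224, 169 and 209 RPKM in D4, r1 and r2, and at most 126 RPKM in the other cultures. Cd68, also a macrophage marker, did not follow it, with its lowest 0 h values of 328 RPKM in M3 and 333 RPKM in D4, against 698 and 743 RPKM in r1 and r2. In bulk RNA, fewer cells of a type and less RNA per cell cannot be told apart, and the part of this spread in the results was not tested.

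**Figure D2:**
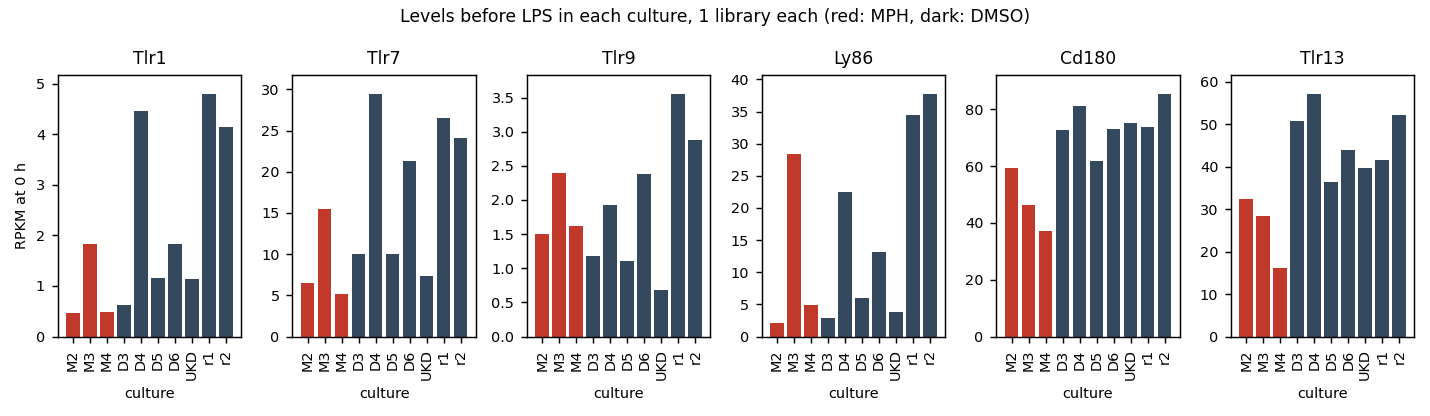
RPKM at 0 h of LPS in each culture, 1 library per bar, for 6 genes (MPH red, left; DMSO dark, right). Tlr1 and Ly86 are highest in M3 among the MPH cultures and in D4, r1 and r2 among the DMSO cultures. Tlr1 in M3 is no higher than in D6. Cd180 and Tlr13 are lower in all 3 MPH cultures than in all 7 DMSO cultures.

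Differences were tested with limma on log2(RPKM + 0.5), which understates the change of low genes, and a call is an adjusted p under 0.05 over all genes tested. All 10 genes passed the filter on low values in both fits. With MPH, 1 of the 10 was higher at 1 h than at 0 h (1.89% of 10239 genes), and at 2 h against 0 h, 1 was higher (5.97% of genes) and 1 lower (14.7%). Under DMSO, 1 was higher at 1 h than at 0 h, where 5.24% of 10212 genes were. At 2 h against 0 h, 2 were higher and 4 lower, where 10.5% of all genes were higher and 43.6% lower. At 2 h against 1 h, 1 was higher and 2 lower, where 6.59% of all genes were higher and 15.4% lower. The median log2 difference of the 10 genes at 2 h against 0 h was -0.066 with MPH and -0.087 with DMSO, against -0.23 with MPH and -0.25 with DMSO over all genes. Scaling by median-of-ratios moved the median of all genes up by 0.22 with MPH and 0.24 with DMSO.

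Libraries of a culture deviated from their group means together, so the LPS comparisons were also fitted with the culture as a block. With it and MPH, 3 of the 10 genes passed at 1 h (12.1% of all genes in either direction), Tlr2, Tlr4 and Tlr9. At 2 h 6 passed (54.5%), Tlr2, Tlr4, Tlr8, Tlr9, Tlr13 and Cd180. Under DMSO 4 passed at 1 h (53.5%), Tlr2, Tlr4, Tlr8 and Cd180, and 6 at 2 h against 0 h (76.9%), the 6 called without the block. At 2 h against 1 h 5 passed (49.2%), Tlr1, Tlr2, Tlr4, Tlr8 and Tlr13.

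Levels were compared between MPH and DMSO at each time, with limma pooling the spread over the 3 times as if libraries of a culture were independent. Their deviations correlated at 0.62 to 0.91, so these limma p-values rest on fewer independent values than the fit counts. At 0 h limma called none of the 10, where 0.869% of 10239 genes passed, with 4 of the 10 and 685 of all genes at an unadjusted p under 0.05. At 1 h it called none of the 10 and 0% of all genes, with 2 of the 10 and 327 of all genes at an unadjusted p under 0.05. At 2 h Cd180 alone was lower, where 0.391% of genes were. Exact permutation tests of the level against D3 to D6 gave p under 0.05 for 2 of the 10 at 0 h (4.7% of all genes), 0 at 1 h (0.82%) and 3 at 2 h (6.06%). The LPS responses differed, by a treatment by LPS interaction, for none of the 10 genes at 1 h (0% of genes, with 0 of the 10 and 83 of all genes at an unadjusted p under 0.05). At 2 h it was again none (0.107% of genes, with 1 of the 10 and 318 of all genes at an unadjusted p under 0.05). Exact permutation tests of the culture responses against D3 to D6 were under 0.05 for 3 of the 10 at 1 h (4.32% of all genes) and 2 at 2 h (7.2%). For exact tests against all 7 DMSO cultures no share of all genes is given. With the culture block none passed at 1 h (0.195% of genes), and at 2 h Tlr4 did (1.43%).

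**Figure D3:**
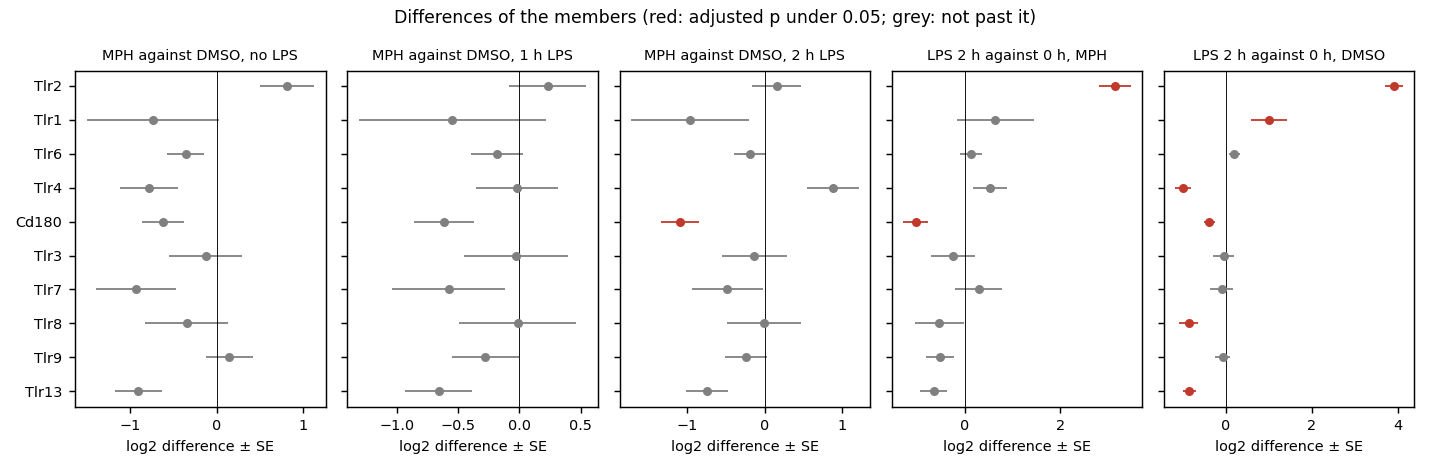
Log2 differences (points) with standard errors (lines) from limma for the 10 genes in 5 comparisons, those of MPH with DMSO using D3 to D6. Red marks an adjusted p under 0.05. Tlr2 lies far to the right after LPS under both pretreatments, and Cd180 at 2 h is the only red point between MPH and DMSO.

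Tlr2 had the largest LPS response of the 10 genes. Tlr2 had 31.1, 41.7 and 21.8 RPKM at 0 h in M2, M3 and M4, 198, 169 and 120.2 RPKM at 1 h, and 253, 285 and 285 RPKM at 2 h. In the 7 DMSO cultures its lowest, median and highest values were 10.2, 13.7 and 32.7 RPKM at 0 h, 89.0, 112 and 195 RPKM at 1 h, and 198, 230.3 and 306 RPKM at 2 h. Every culture rose at each step, and the 2 h values lay far above those at 0 h under either pretreatment. At 2 h the log2 rise over 0 h was 3.15 (SE 0.34, adjusted p = 3.49e-06) with MPH and 3.91 (SE 0.20, adjusted p = 1.40e-11) with DMSO, which is 8.85 times with MPH and 15.1 times with DMSO on the RPKM + 0.5 scale. At 1 h it was 2.36 (SE 0.34, adjusted p = 0.000216; without the library of M4, 2.57, adjusted p = 0.000371) with MPH and 2.99 (SE 0.20, adjusted p = 1.41e-09) with DMSO. Between 1 h and 2 h under DMSO, Tlr2 rose by a further 0.92 (SE 0.20, adjusted p = 0.00298; 0.176 in D3 to D6 alone).

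At 0 h each MPH culture had more Tlr2 than every DMSO culture except D4. The D series had 18.9, 32.7, 10.2 and 13.7 RPKM in D3, D4, D5 and D6, and the log2 difference of MPH from it did not pass (0.81, SE 0.31, adjusted p = 0.482). At 2 h the values overlapped (0.16, SE 0.31, adjusted p = 1.0). The log2 rise at 2 h was smaller with MPH than in D3 to D6 by 0.65 without passing (SE 0.44, adjusted p = 1.0, and with the culture block SE 0.39, adjusted p = 0.614).

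Tlr1 and Tlr6, the partners of Tlr2, are neighbours on chromosome 5. Tlr1 had 0.461, 1.83 and 0.475 RPKM at 0 h in M2, M3 and M4, 0.285, 2.04 and 1.25 RPKM at 1 h, and 0.388, 5.82 and 0.966 RPKM at 2 h. In the DMSO cultures its lowest, median and highest values were 0.628, 1.84 and 4.79 RPKM at 0 h, 0.770, 1.37 and 6.90 RPKM at 1 h, and 0.788, 4.34 and 11.8 RPKM at 2 h. It was higher at 2 h than at 0 h in 2 of 3 MPH and 7 of 7 DMSO cultures, and the treatments overlapped at each time. The change with MPH was 0.64 (SE 0.82, adjusted p = 0.642), and the rise with DMSO was 1.00 (SE 0.41, adjusted p = 0.0451). That call held in 7 of 16 alternatives, with adjusted p between 3.01e-06 with the culture block and 0.371 in D3 to D6 alone, and it was lost without D5, D6, UKD, r1 or r2 (0.0829 to 0.106). Tlr6 had 0.985 to 2.12 RPKM in MPH libraries and 1.28 to 4.93 RPKM in DMSO libraries and passed in no comparison. Its log2 difference at 2 h against 0 h was 0.12 with MPH and 0.19 with DMSO, and the DMSO value was 0.40 and passed under median-of-ratios scaling (adjusted p = 0.0159) and was -0.041 in D3 to D6 alone. Tlr1 and Tlr6 are similar in sequence and the treatment of multiply mapping reads is unknown, so the split of reads between them is uncertain.

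Tlr4, the LPS receptor, changed in opposite directions after LPS under the pretreatments. With MPH, Tlr4 had 2.89, 4.38 and 4.36 RPKM at 0, 1 and 2 h in M2, 6.25, 8.57 and 8.36 RPKM in M3, and 3.02, 3.95 and 4.94 RPKM in M4. With DMSO its lowest, median and highest values were 4.42, 8.35 and 9.18 RPKM at 0 h, 2.94, 5.73 and 8.19 RPKM at 1 h, and 1.57, 3.45 and 6.24 RPKM at 2 h. Relative to its own 0 h library, Tlr4 was higher at both LPS times in 3 of 3 MPH cultures and lower at both times in 7 of 7 DMSO cultures. The mean log2 change at 1 h was 0.43 ± 0.095 with MPH (SD, n = 3) and -0.36 ± 0.19 with DMSO (SD, n = 7). At 2 h it was 0.51 ± 0.12 with MPH and -0.995 ± 0.37 with DMSO.

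**Figure D4:**
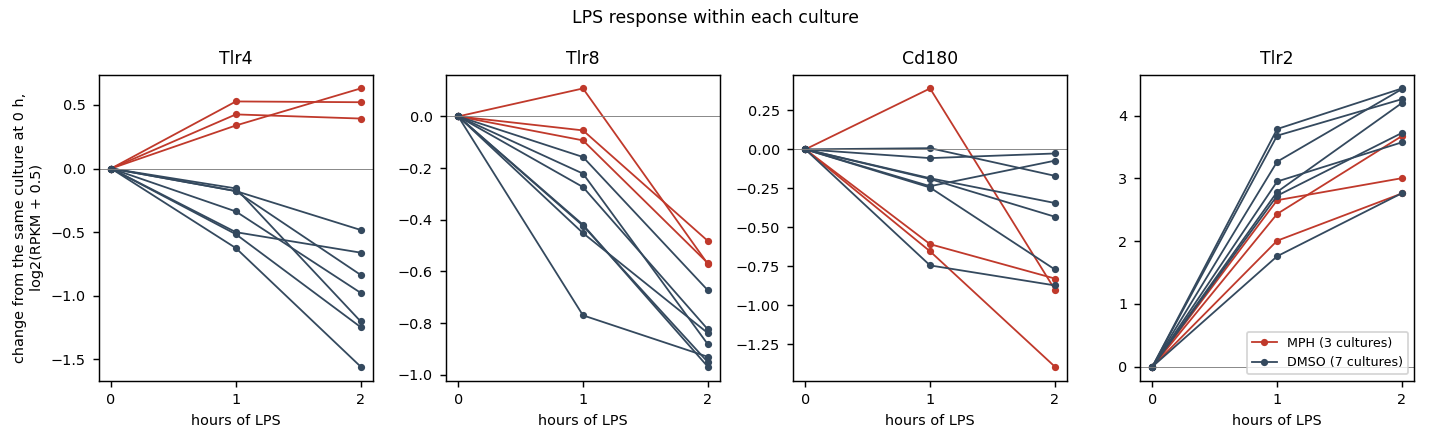
Change of log2(RPKM + 0.5) from the same culture at 0 h, by hours of LPS, for Tlr4, Tlr8, Cd180 and Tlr2, with 1 line per culture (3 MPH red, 7 DMSO dark). The Tlr4 lines do not overlap between pretreatments, lying at 0.39 to 0.63 with MPH and -1.56 to -0.48 with DMSO at 2 h.

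Under MPH the rise at 2 h passed with the culture block (0.51, SE 0.12, adjusted p = 0.00307) and not without it (SE 0.36, adjusted p = 0.349). The rise at 1 h with the block (0.43, SE 0.12, adjusted p = 0.0342) was kept in 8 of 14 further settings, and leaving out all libraries of M2, M3, M4 or D5 lost it, whereas leaving out the 1 h library of M4 did not (adjusted p = 0.0336). Under DMSO the fall of Tlr4 passed at 2 h against 0 h (-0.995, SE 0.18, adjusted p = 0.000116) and against 1 h (-0.64, SE 0.18, adjusted p = 0.0135; in D3 to D6 alone 0.138, and without the shallow 1 h libraries of D4, D6 and UKD -0.47, adjusted p = 0.138). The difference between the responses, MPH minus D3 to D6, was 1.66 at 2 h. It passed with the block (SE 0.16, adjusted p = 0.000124, the 4th smallest p of 10239 genes) and not without it (SE 0.47, adjusted p = 0.436). With the block it also passed in all 14 further settings, with adjusted p between 2.31e-05 and 0.00347, among them leaving out each of the 7 cultures and the 1 h library of M4. At 1 h the difference of 0.75 did not pass with the block (SE 0.16, adjusted p = 0.0987), with or without the 1 h library of M4 (without it 0.83, adjusted p = 0.105), except against all 7 DMSO cultures (adjusted p = 0.0439). Exact two-sided permutation tests of these culture changes gave p = 0.0286 against D3 to D6 and p = 0.00833 against all 7 cultures at either time, the smallest values possible. They belong to 20 such tests against each set, unadjusted, and a share of all genes is given against D3 to D6 only.

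The mean level of Tlr4 was lower with MPH at 0 h and higher at 2 h, and limma called neither difference. At 0 h Tlr4 averaged 4.05 ± 1.91 RPKM with MPH (SD, n = 3) and 7.13 ± 2.10 RPKM in D3 to D6 (SD, n = 4), which differ by -0.78 on the log2 scale (SE 0.34, adjusted p = 0.621). At 2 h it averaged 5.89 ± 2.16 RPKM with MPH and 2.92 ± 0.794 RPKM in D3 to D6, which differ by 0.88 (SE 0.34, adjusted p = 0.338). The 2 h values of MPH lay above all of D3 to D6, but r1 and r2, at 5.62 and 6.24 RPKM, lay among them. Its partner Ly96 had 5.50, 8.77 and 6.31 RPKM at 2 h in M2, M3 and M4 against 5.14, 5.81, 4.61 and 7.37 RPKM in D3, D4, D5 and D6. Ly96 passed in no comparison without the block. With the block it fell under DMSO at 2 h against 0 h (-0.22, adjusted p = 0.0267) and against 1 h (-0.23, adjusted p = 0.0311). Of all genes, 76.9% and 49.2% passed there in either direction. The Ly96 interaction at 2 h did not pass with the block (0.60, adjusted p = 0.0843). Cd14 was higher with MPH at 0 h, with 205, 165 and 207 RPKM in M2, M3 and M4 against 34.7, 39.3, 29.8 and 40.9 RPKM in D3, D4, D5 and D6 (2.40, SE 0.26, adjusted p = 8.25e-05).

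Of the 10 genes, Cd180 was the one called lower with MPH than with DMSO, at 2 h. Cd180 had 59.3, 46.3 and 37.0 RPKM at 0 h in M2, M3 and M4, 38.7, 29.3 and 48.7 RPKM at 1 h, and 33.2, 17.3 and 19.6 RPKM at 2 h. In D3, D4, D5 and D6 it had 72.6, 81.2, 61.8 and 73.2 RPKM at 0 h, 73.0, 68.5, 54.1 and 43.5 RPKM at 1 h, and 64.5, 47.4, 45.7 and 39.8 RPKM at 2 h. UKD, r1 and r2 lay between 59.2 and 85.4 RPKM at the 3 times. At 0 h and at 2 h all MPH values lay below all 7 DMSO values, and at 1 h M4 lay among them.

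At 2 h Cd180 was lower with MPH than in D3 to D6 by 1.10 on the log2 scale (SE 0.24, adjusted p = 0.0365), or 0.468 of the DMSO level on the RPKM + 0.5 scale. The call held in 9 of 16 alternatives, with adjusted p between 0.000633 and 0.212, and was lost without D3 (0.0930), D4 (0.154), D5 (0.157), D6 (0.0803), M3 (0.212) or M4 (0.0980), the difference staying between -1.43 and -0.91. Exact two-sided permutation tests of the level gave p = 0.0286 against D3 to D6 and p = 0.00833 against all 7 cultures at both 0 h and 2 h, the smallest possible, among 30 such tests against each set. Against D3 to D6, 4.7% of all genes at 0 h and 6.06% at 2 h had an exact p under 0.05, and no share is given against all 7. By limma the difference did not pass at 0 h (-0.62, SE 0.24, adjusted p = 0.498) or at 1 h (-0.61, SE 0.24, adjusted p = 1.0; without the library of M4, -0.79, adjusted p = 0.256).

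Cd180 was lower at 2 h of LPS than at 0 h in all 3 MPH and all 7 DMSO cultures. The log2 change was -1.04 (SE 0.26, adjusted p = 0.00891) with MPH and -0.38 (SE 0.13, adjusted p = 0.0174) with DMSO. The call with MPH was lost without M3 (-0.86, adjusted p = 0.103). The call with DMSO was lost under median-of-ratios scaling (-0.12, adjusted p = 0.480) and without D4 (adjusted p = 0.0592). The responses differed by -0.48 at 2 h without passing (SE 0.34, adjusted p = 1.0, and with the culture block SE 0.25, adjusted p = 0.532). Ly86, which brings Cd180 to the surface, passed in no comparison without the block. With the block it fell under DMSO at 2 h against 0 h (-0.32, adjusted p = 0.00210), where 76.9% of all genes passed in either direction.

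Tlr13, the endosomal sensor of bacterial ribosomal RNA, was also low with MPH. Tlr13 had 32.4, 28.5 and 16.1 RPKM at 0 h in M2, M3 and M4, 19.9, 23.7 and 33.1 RPKM at 1 h, and 21.4, 12.3 and 13.6 RPKM at 2 h. In D3, D4, D5 and D6 it had 50.7, 57.2, 36.4 and 43.9 RPKM at 0 h, 46.3, 51.3, 33.2 and 31.6 RPKM at 1 h, and 36.9, 24.8, 22.1 and 22.8 RPKM at 2 h. At 0 h all MPH values lay below all 7 DMSO values, and at 2 h below D3 to D6 but not below UKD, at 15.7 RPKM. The differences did not pass by limma at 0 h (-0.90, SE 0.27, adjusted p = 0.198) or 2 h (-0.75, SE 0.27, adjusted p = 0.294). The exact permutation p against D3 to D6 was 0.0286 at 0 h and 2 h, the smallest possible, and 0.114 at 1 h. Against all 7 cultures it was 0.00833 at 0 h, 0.0333 at 1 h and 0.0583 at 2 h. These are among 30 such tests against each set, unadjusted. Against D3 to D6, 4.7% of all genes at 0 h and 6.06% at 2 h had an exact p under 0.05, and no share is given against all 7.

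Tlr13 was lower at 2 h of LPS than at 0 h in every culture. With MPH the change was -0.66 from 0 h, which passed with the culture block (SE 0.25, adjusted p = 0.0337) and not without it (SE 0.29, adjusted p = 0.119). With DMSO it was -0.85 from 0 h (SE 0.15, adjusted p = 0.000150) and -0.64 from 1 h (SE 0.15, adjusted p = 0.00571; 0.170 in D3 to D6 alone). Over the 30 libraries the log2 levels of Tlr13 and Cd180 had r = 0.84, a description over libraries that share cultures.

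Tlr7, the sensor of single-stranded RNA, and Tlr8 are neighbours on the X chromosome. Tlr8 had 4.60, 11.9 and 4.03 RPKM at 0 h in M2, M3 and M4, 4.41, 12.8 and 3.75 RPKM at 1 h, and 3.15, 7.82 and 2.56 RPKM at 2 h. With DMSO its lowest, median and highest values were 4.43, 8.26 and 15.3 RPKM at 0 h, 3.19, 6.75 and 11.4 RPKM at 1 h, and 2.02, 4.45 and 7.80 RPKM at 2 h. It was lower at 2 h than at 0 h in all 3 MPH and all 7 DMSO cultures. With MPH the change was -0.54, which passed with the culture block (SE 0.08, adjusted p = 0.000123) and not without it (SE 0.51, adjusted p = 0.512), and with DMSO it was -0.87 (SE 0.21, adjusted p = 0.00217; 0.0905 in D3 to D6 alone). The culture changes at 2 h did not overlap, at -0.57 to -0.48 with MPH and -0.97 to -0.67 with DMSO (exact two-sided permutation p = 0.0286 against D3 to D6, the smallest possible). That test was among 20 against D3 to D6, unadjusted, and 7.2% of all genes had an exact p under 0.05 at 2 h. The interaction did not pass, also with the block (0.33, SE 0.11, adjusted p = 0.180). Tlr7 had 5.17 to 15.5 RPKM in MPH libraries and 7.14 to 29.7 RPKM in DMSO libraries and passed in no comparison.

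Tlr9, the sensor of CpG DNA, was low and fell with MPH when the culture was a block. Tlr9 had 1.502, 2.39 and 1.62 RPKM at 0 h in M2, M3 and M4, 0.780, 1.33 and 1.03 RPKM at 1 h, and 1.12, 1.34 and 0.889 RPKM at 2 h. Its lowest, median and highest values with DMSO were 0.680, 1.93 and 3.55 RPKM at 0 h, 0.611, 1.81 and 2.66 RPKM at 1 h, and 1.07, 1.58 and 3.15 RPKM at 2 h. All 3 MPH cultures were lower at both LPS times than at 0 h. Of 7 DMSO cultures, 6 were lower at 1 h and 5 at 2 h, and the levels of the treatments overlapped. With MPH and the block, Tlr9 changed by -0.59 at 1 h (SE 0.15, adjusted p = 0.0215) and -0.52 at 2 h (SE 0.15, adjusted p = 0.0108), calls not made without the block (adjusted p = 0.539 and 0.229). Without the 1 h library of M4 the call at 1 h held (adjusted p = 0.0265). At 1 h the call was lost without M2, M3 or M4 (0.0575 to 0.120) or without a filter on low values (0.0740), and at 2 h without M3 or M4 (0.0872 and 0.0654) or under median-of-ratios scaling (0.0810). The DMSO change did not pass at 2 h (-0.072, adjusted p = 0.747), nor at 1 h with the block (-0.18, adjusted p = 0.144). The interaction with the block did not pass at 1 h (-0.42, adjusted p = 0.902) or 2 h (-0.38, adjusted p = 0.538).

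Tlr3, the sensor of double-stranded RNA, passed in no comparison. It had 0.734 to 3.16 RPKM in MPH libraries and 0.768 to 3.26 RPKM in DMSO libraries. Its log2 difference at 2 h against 0 h was -0.25 with MPH and -0.055 with DMSO.

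Of 10 genes listed as accessory or trafficking genes of the receptors, 9 were tested, and at 2 h of LPS 1 rose and 1 fell under each pretreatment. Of all genes, 5.97% rose and 14.7% fell with MPH, and 10.5% rose and 43.6% fell with DMSO. Cd14 rose by 2.37 with MPH (SE 0.28, adjusted p = 1.17e-05) and by 3.41 with DMSO (SE 0.15, adjusted p = 1.27e-12). Rftn1, a lipid raft protein, fell with MPH (-0.79, SE 0.25, adjusted p = 0.0339), and Cnpy3, a chaperone of Toll-like receptors, fell with DMSO (-0.50, SE 0.09, adjusted p = 0.000110). Between MPH and DMSO, Cd14 was the gene of this list that passed, at 2 h as well as before LPS (1.28, SE 0.26, adjusted p = 0.0258). With the culture block 1 rose and 2 fell with MPH and 1 rose and 6 fell with DMSO. Of all genes, 54.5% with MPH and 76.9% with DMSO passed with the block in either direction. Cnpy3 then also passed with MPH (-0.44, adjusted p = 0.00282) and Rftn1 with DMSO (-0.16, adjusted p = 0.0318). Unc93b1, which carries the endosomal receptors out of the endoplasmic reticulum, passed in no comparison.

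Of 17 adaptors and proximal kinases, 16 were tested. At 2 h of LPS 7 rose and 1 fell with MPH, where 5.97% of all genes rose and 14.7% fell. With DMSO 8 rose and 3 fell, where 10.5% of all genes rose and 43.6% fell. The median log2 difference of the list was 0.33 with MPH and 0.33 with DMSO. Myd88, the adaptor of most Toll-like receptors, rose by 1.15 with MPH (SE 0.24, adjusted p = 0.00236) and by 0.81 with DMSO (SE 0.14, adjusted p = 0.000116). Irak2, a kinase of the Myd88 pathway, rose by 1.02 with MPH (SE 0.25, adjusted p = 0.00788) and by 2.02 with DMSO (SE 0.19, adjusted p = 7.40e-08). Ticam1, Ikbke, Tbk1, Tab2 and Irak3 also rose under both pretreatments and Traf3 with DMSO. Tab1, a partner of the kinase Map3k7, fell under both (-1.23, SE 0.25, adjusted p = 0.00192 with MPH; -1.43, SE 0.15, adjusted p = 2.06e-07 with DMSO), and Irak1 and Irak4 fell with DMSO. With the culture block 10 rose and 2 fell with MPH and 10 rose and 4 fell with DMSO, where 54.5% and 76.9% of all genes passed. Traf3 (0.40, adjusted p = 0.0371) and Irak1 (-0.44, adjusted p = 0.000758) then also passed with MPH. Irak3 (IRAK-M), an inhibitor of this pathway, was the gene of the list that passed between MPH and DMSO. At 2 h Irak3 had 13.7, 20.2 and 16.7 RPKM in M2, M3 and M4 against 8.12, 12.3, 8.80 and 10.5 RPKM in D3, D4, D5 and D6 (0.74, SE 0.15, adjusted p = 0.0258), and its LPS responses differed with the culture block (1.02, SE 0.21, adjusted p = 0.0241; without it, adjusted p = 0.102).

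The genes most like each receptor in log2 level over the 30 libraries, by Pearson r among 10355 genes, are given as a description, since libraries share cultures and LPS times. For Tlr2 these were Clec4e (0.98), Il1b (0.98) and Ccrl2 (0.97), and for Tlr3 Trim30a (0.96), Slfn3 (0.93) and Eif2ak2 (0.93). For Tlr4 they were Pikfyve (0.88), Ect2 (0.87) and Sass6 (0.87), for Tlr8 Topbp1 (0.95), Arl6ip1 (0.94) and Cep128 (0.94), and for Cd180 Farsb (0.93), Ptpra (0.92) and C3ar1 (0.91). For Tlr1 they were Grap (0.94), Dram1 (0.93) and Cyria (0.93), and for Tlr6 Csf3r (0.86), Prkd3 (0.85) and Stk4 (0.85). For Tlr7 they were Acap2 (0.92), Idi1-ps1 (0.92) and Idi1 (0.91), for Tlr9 Hsd17b4 (0.92), Selenop (0.91) and Oxct1 (0.89), and for Tlr13 Slc2a3 (0.91), Dclre1a (0.91) and Evi2b (0.89). Idi1-ps1 is a pseudogene whose reads may be split with Idi1. Among the 10 genes the closest pairs were Tlr4 with Tlr8 (0.86) and Tlr13 with Cd180.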

How the data were processed

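RNA was sequenced in 30 libraries. Per the submitters' processing notes, FastQC, cutadapt, HISAT2, SAMtools and build mm9 were used, with no versions stated. How reads were counted, including strand and multiple mapping, is not stated. The deposited table holds RPKM values computed by the authors for 44401 RefSeq transcripts, and the line with the highest mean was kept for each symbol.

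Values were tested as log2(RPKM + 0.5) with limma-trend (limma 3.58.1, R 4.3.3), keeping genes that reached 1 RPKM in 3 or more libraries, with Benjamini-Hochberg adjustment. A fit of D3 to D6 with M2 to M4 had a mean per treatment and time, and a fit of all DMSO libraries had the name series as covariate. Alternatives changed the block, pseudocount, filter, scaling, transcript line, covariate or libraries. Exact permutation tests and combinations with the culture block were added after seeing the data. Scripts were tested on simulated data. Culture names pair libraries over time, since a name marks 1 culture (correlations of deviations 0.62 to 0.91). Depth was estimated from values below 0.1 RPKM. The fewest reads were about 17 for Tlr1 and 18 for Tlr9, a counting error of 24.5% and 23.5%. Promoters are RefSeq windows of GRCm38.p6, not the build of the files. The members and lists were chosen with earlier results of these data known. All 10 members are described, with full statistics past the threshold, and list genes were named by smallest p or by role.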

Additional observations from a re-analysis of the deposited data

Results flagged for a closer look

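The log2 response of Tlr4 to LPS was higher with MPH than in D3 to D6 by 0.75 at 1 h and by 1.66 at 2 h, with every MPH culture up and every DMSO culture down. For Tlr8 this difference was 0.329 at 1 h and 0.334 at 2 h, and for Tlr9 it was -0.42 at 1 h. Each of these 5 differences had an exact two-sided permutation p of 0.0286, the smallest that 3 against 4 cultures can give. The flagging rule itself asked for a p under 0.05, so this p is no further support. There were 20 such tests, unadjusted, and 4.32% of all genes at 1 h and 7.2% at 2 h had such a p. The differences at 1 h include the library labelled M4. Of the 5, Tlr4 at 2 h passed the adjustment over all genes, with the culture block.

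In 30 groups of 7 DMSO libraries, 2 held a library far from the others, both D4 at 0 h, with 32.7 RPKM of Tlr2 and 3.26 RPKM of Tlr3. Chance alone gives this in about 5% of groups.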

How the results depend on the processing

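Of 496 values of single genes under the alternatives, 449 kept their direction and side of the threshold, 21 gained and 25 lost a call, and 1 reversed: Tlr6 at 2 h of LPS under DMSO was 0.19, and -0.041 in D3 to D6 alone, neither passing. With the culture as a replicate block, 3 and 6 genes passed with MPH at 1 h and 2 h (1 and 2 without), 4 and 5 under DMSO at 1 h against 0 h and 2 h against 1 h (1 and 3 without), and 1 interaction at 2 h (0 without). In D3 to D6 alone, 0 genes passed at 2 h against 1 h. Without a filter on low values, 0 passed for MPH against DMSO at 2 h. Leaving out each culture gave 1 to 2 genes at 2 h with MPH, 0 to 1 for MPH against DMSO at 2 h, and, under DMSO, 1 to 2 at 1 h, 5 to 6 at 2 h and 3 to 5 at 2 h against 1 h; the higher DMSO counts at 1 h and at 2 h against 1 h came without D4. A replicate block on the number in the culture name gave 2, 1 and 2 genes for MPH against DMSO at 0, 1 and 2 h, but same-numbered libraries correlated at -0.63 to -0.34 in their deviations, so the samples share only a number. With the culture block, 1 gene passed at 1 h with MPH without a filter, without M2 or without M3, and median-of-ratios scaling left 2 genes at 1 h under DMSO. The causes were not tested. Low read numbers limit Tlr1, Tlr3, Tlr6 and Tlr9.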

Other observations

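Tlr5, outside the 10 genes, had 0.715, 2.05 and 0.966 RPKM at 0 h in M2, M3 and M4, against 0.318, 0.588, 0.127 and 0.0840 RPKM in D3, D4, D5 and D6. At 1 h it had 1.17, 2.20 and 0.156 RPKM in M2, M3 and M4, the last being the library whose Crem was low, against 0.175, 0.354, 0.144 and 0.233 RPKM in D3, D4, D5 and D6. At 2 h it had 1.06, 0.475 and 0.250 RPKM in M2, M3 and M4, against 0.147, 0.0291, 0.0316 and 0.0174 RPKM in D3, D4, D5 and D6. MPH values lay above these DMSO values at 0 h and 2 h, and the differences did not pass by limma, at 1.13 (SE 0.38, adjusted p = 0.280) at 0 h and 0.91 (SE 0.38, adjusted p = 0.414) at 2 h.

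The ratio of Tlr4 to Cd180 RPKM, chosen after the values were seen, was 0.0487 to 0.135 in MPH cultures and 0.0588 to 0.125 in the 7 DMSO cultures at 0 h. At 2 h it was 0.131 to 0.482 in MPH cultures and 0.0266 to 0.0802 in the DMSO cultures. It is given as a description.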
